A study of Mus musculus with 6 samples.

Results

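The genes described are Cd4, Cd8a and Cd8b1, which encode the T cell coreceptors. They were found by gene symbol in the array annotation, and all 3 are present among the 19937 genes tested, each with 1 probe set of a single symbol and none shared with another gene (10547894 for Cd4, 10538993 for Cd8a and 10538979 for Cd8b1). The study measured RNA of Thy1.2+ cells, purified with magnets from E17.5 Rag1-/- mouse fetal thymi, on 6 one-colour whole-transcript arrays in 3 groups of 2. The groups were 79-6 (40 h with anti-CD3 and 50 µM 79-6, a small molecule made to block the BTB domain through which Bcl6 recruits corepressors), DMSO (40 h with anti-CD3 and the vehicle) and fresh (0 h, neither cultured nor stimulated). Every group, fresh cells included, lacks Rag1, so none of the thymocytes can rearrange T cell receptor genes and the antibody to CD3 stands in for the pre-T cell receptor. The series design describes organ cultures of fetal thymi. The labels do not say how many embryos went into an array or whether replicates were separate cultures, so p-values measure the spread between arrays only.

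CD4 is a single-chain receptor that binds MHC class II, and CD8 on thymocytes is a dimer of the alpha and beta chains, encoded by Cd8a and Cd8b1, that binds MHC class I. The tails of CD4 and CD8 alpha carry the kinase Lck to the T cell receptor. Early thymocytes have neither coreceptor and are called double-negative (DN). Mouse thymocytes that pass beta-selection at the DN3 stage first turn on CD8, as immature single-positive (ISP) cells, and then CD4, which makes them double-positive (DP).

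Of the 3 members 1, Cd8a, was matched in the promoter table, and Cd4 and Cd8b1 were not. The start of Cd8a is shown for that reason and because this gene rose more than any other in DMSO cultures relative to fresh cells, together with that of Cd5, the gene whose pattern over the arrays was most like that of Cd4. Each sequence runs from 250 bases before to 50 bases after the gene's start, 5′ to 3′ on the gene's own strand, as RefSeq gives it on GRCm38.p6, at chr6:71373177-71373476 (+) for Cd8a and chr19:10738925-10739224 (-) for Cd5. Capitals mark E-boxes (CANNTG on either strand), the motif bound by E proteins such as HEB and E2A.
Cd8a: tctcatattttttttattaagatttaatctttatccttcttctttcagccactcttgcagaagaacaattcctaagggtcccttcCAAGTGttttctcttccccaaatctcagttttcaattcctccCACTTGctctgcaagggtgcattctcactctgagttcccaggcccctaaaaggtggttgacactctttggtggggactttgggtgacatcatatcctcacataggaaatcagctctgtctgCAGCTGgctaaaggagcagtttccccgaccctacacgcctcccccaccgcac
Cd5: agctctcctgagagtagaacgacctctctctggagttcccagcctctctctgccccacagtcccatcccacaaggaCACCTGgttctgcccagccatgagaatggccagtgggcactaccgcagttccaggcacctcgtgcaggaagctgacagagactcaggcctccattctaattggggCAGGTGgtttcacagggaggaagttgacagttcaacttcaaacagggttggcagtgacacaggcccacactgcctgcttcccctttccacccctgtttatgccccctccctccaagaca
Cd8a holds 3 E-boxes and Cd5 holds 2. Among 32851 such mouse promoters 72.3% hold at least 1, so their presence sets neither gene apart. The RUNX motif TGTGGT, the GATA motif AGATAA, the TCF and LEF motif CTTTGA and the motif TTCNNNGAA, shared by BCL6 and STAT factors, had no match on either strand of either window; they occur in 16.8%, 11.2%, 16% and 8.3% of the promoters. The RBPJ motif TGGGAA had 1 match in each window and occurs in 25.6% of the promoters. The AHR motif GCGTG had 1 match in Cd8a and 0 in Cd5 and occurs in 32.4%.

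Across the arrays the median intensity lay between 99.3 and 103.6, and replicates correlated at 0.9968 (79-6), 0.9975 (DMSO) and 0.9977 (fresh) over genes. Thy1, which encodes the antigen used for purification, stood at 8493 and 8662 with 79-6, 9399 and 9810 with DMSO, and 7242 and 7045 in fresh cells, so the marker of the labelled cells was present on all 6 arrays. Values are RMA intensities on the linear scale unless log2 is named, changes are log2 differences of group means, and "called" means an adjusted p under 0.05 by limma over all 19937 genes.

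With 79-6 against DMSO, Cd4 was the 1 coreceptor gene called, lower and close to the threshold, and the 2 CD8 genes did not pass the test. The call of Cd4 was lost whichever array was left out. Cd4 read 1196 and 1146 in the 79-6 arrays, against 1490 and 1799 in the DMSO arrays. Both 79-6 arrays lay below both DMSO arrays, which stood further from each other than the 79-6 arrays did. The fold was 0.715 (95% interval 0.607 to 0.842), a log2 change of -0.48 ± 0.10 (SE, n = 2 each, adjusted p = 0.0461 by limma). Cd8a read 4926 and 5083 with 79-6 and 4685 and 4506 with DMSO. The groups did not overlap, but the fold of 1.09 (interval 0.969 to 1.22) was not called (adjusted p = 0.393 by limma). Cd8b1 read 10165 and 9481 with 79-6 and 9806 and 10022 with DMSO, values that overlap, with a fold of 0.99 (interval 0.849 to 1.16, adjusted p = 0.953 by limma). The intervals hold changes of Cd8a from 0.969- to 1.22-fold and of Cd8b1 from 0.849- to 1.16-fold, so a shift within those bounds remains possible. They are not adjusted over all genes, so they do not give the smallest change the test could call. In RNA from a population, fewer cells of a type and less RNA per cell cannot be told apart.

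Of the 3 members 1 was called here, lower, while limma called 4.36% of all genes, 2.38% higher and 1.98% lower. Cd4 was the 256th of 19937 genes from the low end. Its call was close to the threshold and was lost whichever array was left out: the adjusted p was 0.071 without either fresh array, 0.0686 and 0.186 without DMSO replicates 1 and 2, and 0.0813 and 0.193 without 79-6 replicates 1 and 2. The log2 change then lay between -0.62, without DMSO replicate 1, and -0.35, without DMSO replicate 2. With arrays set to 1 median of 6 general T-lineage genes, the change of Cd4 was -0.41 (adjusted p = 0.0585 by limma) and that of Cd8b1 turned to 0.06 (not called). That scaling shifts the median of all genes to 0.09 and makes 80.1% of the calls higher, against 54.7% as deposited. Between 79-6 and fresh cells it makes 63.2% of the calls higher, against 46.4%.

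**Figure D1:**
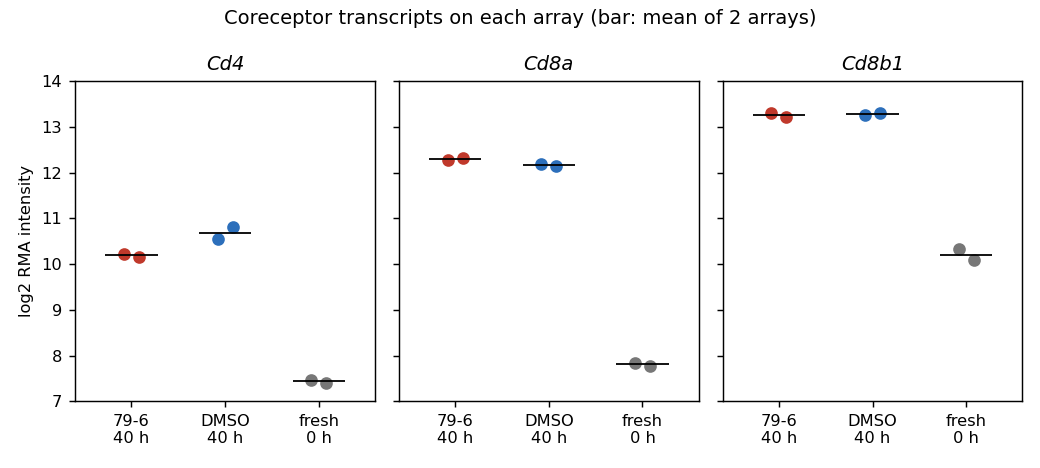
Log2 RMA intensity (vertical axis) of Cd4, Cd8a and Cd8b1 on each of the 6 arrays, by group; points are arrays and bars are means of 2 arrays. All 4 cultured arrays lie far above the fresh arrays for each gene, and in 79-6 the Cd4 mean (10.19) lies below that of DMSO (10.68).

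With DMSO against fresh cells all 3 coreceptor genes rose, and the comparison holds 40 h of culture, vehicle and anti-CD3 together. Cd4 read 1490 and 1799 with DMSO, against 178.1 and 170.2 in fresh cells, a 9.41-fold rise (interval 7.99 to 11.1, adjusted p = 6.84e-06 by limma). Cd8a read 4685 and 4506 with DMSO, against 230.0 and 218.5 in fresh cells, and the rise was 20.5-fold (interval 18.2 to 23.0, adjusted p = 4.61e-07 by limma). Cd8b1 read 9806 and 10022 with DMSO, against 1278 and 1087 in fresh cells, and the rise was 8.41-fold (interval 7.21 to 9.81, adjusted p = 6.84e-06 by limma). No DMSO array came near a fresh one for any of these genes. Ordered by rise, Cd8a was 1st, Cd4 7th and Cd8b1 8th of 19937 genes, and limma called 19.6% of genes, 8.89% higher. All 3 calls held when any array was left out, with adjusted p up to 0.00024, 5.76e-05 and 0.00032 for Cd4, Cd8a and Cd8b1.

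In the 79-6 group relative to fresh cells the coreceptor genes rose 6.73-fold for Cd4 (interval 5.71 to 7.92), 22.3-fold for Cd8a (19.9 to 25.1) and 8.33-fold for Cd8b1 (7.14 to 9.72), with adjusted p of 8.91e-06, 3.77e-07 and 6.44e-06 by limma. This comparison uses the same fresh arrays as the one before. Here Cd8a was 3rd, Cd8b1 14th and Cd4 25th in order of rise, and limma called 26% of genes, 12% higher. For Cd4 the order of levels was therefore DMSO, 79-6, fresh, with the first step resting on the call near the threshold. For Cd8a and Cd8b1 the 79-6 and DMSO levels did not differ beyond the test, and fresh cells stood far below.

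**Figure D2:**
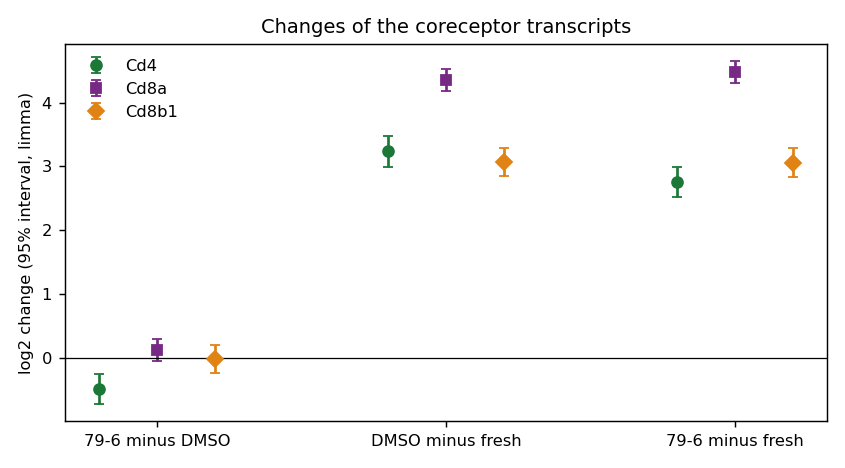
Log2 change of each coreceptor gene in the 3 comparisons, with 95% intervals from limma (6 arrays). Cd8a rises most with culture in both treated groups, and the Cd4 interval is the one that leaves 0 between 79-6 and DMSO (-0.72 to -0.25).

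Whether the members moved by unequal amounts was read from the difference between 2 probe sets within each array, in which array scaling cancels. Only its change between groups is used, since levels of different probe sets are not comparable. A constant probe effect cancels in that change, but one that varies with intensity does not, and its part was not tested. In fresh cells Cd8a read 230.0 and 218.5, against 1278 and 1087 for Cd8b1. Between 79-6 and DMSO, Cd4 minus Cd8a ran from -2.15 to -2.04 in the 79-6 arrays and from -1.65 to -1.32 in the DMSO arrays, a shift of -0.61. Cd4 minus Cd8b1 lay between -3.09 and -3.05 in the 79-6 arrays and between -2.72 and -2.48 in the DMSO arrays, a shift of -0.47. Cd8b1 minus Cd8a shifted by -0.14, a value that was -0.06 without 79-6 replicate 2 and -0.21 without 79-6 replicate 1. In these 3 contrasts the groups did not overlap.

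Between DMSO and fresh cells, Cd8b1 minus Cd8a ran from 1.07 to 1.15 in DMSO arrays and from 2.31 to 2.47 in fresh ones. By these probe sets Cd8b1 rose by 1.29 log2 units less than Cd8a. Cd4 minus Cd8a shifted by -1.12. For Cd4 minus Cd8b1 the shift was 0.16, and the values ran from -2.72 to -2.48 in DMSO arrays and from -2.84 to -2.68 in fresh ones, which overlap. That shift was 0.08 and 0.25 without fresh replicates 1 and 2, and 0.28 and 0.04 without DMSO replicates 1 and 2. Between 79-6 and fresh cells the shifts were -1.73 for Cd4 minus Cd8a, -1.42 for Cd8b1 minus Cd8a and -0.31 for Cd4 minus Cd8b1. In an exact permutation test with 2 arrays against 2 the smallest two-sided p is 0.333. The 8 contrasts without overlap reached it and the ninth, Cd4 minus Cd8b1 for DMSO against fresh, had 0.667, so none of the 9 differences could pass 0.05.

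**Figure D3:**
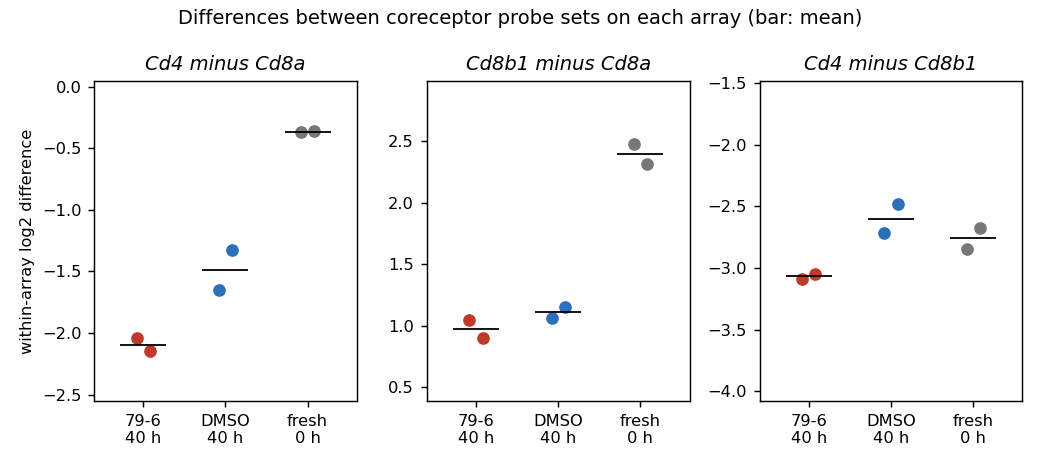
Within-array log2 difference between pairs of coreceptor probe sets (vertical axes, each spanning 2.6 log2 units), by group; points are arrays and bars are means. Cd4 minus Cd8a and Cd8b1 minus Cd8a are lower in both cultured groups than in fresh cells, and Cd4 minus Cd8a is lowest in 79-6 (-2.15 and -2.04).

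The target of 79-6 was followed beside the coreceptors. Bcl6 read 371.7 and 365.5 with 79-6 and 505.0 and 577.9 with DMSO, a 0.682-fold level (adjusted p = 0.0251 by limma), against 181.7 and 164.6 in fresh cells, from which DMSO differed 3.12-fold (adjusted p = 5.07e-05). The call between 79-6 and DMSO was lost without DMSO replicate 1 (0.0713) or 2 (0.147) or 79-6 replicate 1 (0.0613) or 2 (0.122). These are transcript levels, and the activity of Bcl6 was not measured.

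Among 25 measured regulators of the coreceptor loci, 1 rose and 4 fell with 79-6 against DMSO, with a median change of -0.20 against 0.02 for all genes. Over all genes 2.38% were called higher and 1.98% lower. At an unadjusted p under 0.05 there were 16 of the 25. No share over all genes was computed at an unadjusted p, here or in later paragraphs. Counts at that threshold therefore cannot be set against the shares of genes called. Thy1 had an unadjusted p of 0.051 and an adjusted p of 0.247 by limma, so such p-values were common over all genes. A trended robust variance gave 1 rise and 12 falls in the list, and 811 rises and 912 falls over all genes. Runx3, which represses Cd4 and activates Cd8 genes in CD8-lineage cells, rose 1.71-fold. It read 2046 and 2120 with 79-6 and 1202 and 1239 with DMSO (adjusted p = 0.00354 by limma), and 1274 and 1301 in fresh cells. Both 79-6 arrays thus lay above the other 4 arrays, and the call held when any array was left out (adjusted p up to 0.0402). The falls were in Satb1 (-0.46), a chromatin organiser that acts at both coreceptor loci, Zeb1 (-0.38), a zinc-finger repressor, Uhrf1 (-0.35), a maintenance factor of DNA methylation, and Myb (-0.35), which binds the Cd4 enhancer and silencer. Satb1 read 5781 and 5902 with 79-6 and 7862 and 8244 with DMSO (adjusted p = 0.0183 by limma). The calls of Myb, Uhrf1 and Zeb1 were lost whichever array was left out, with adjusted p up to 0.178, 0.18 and 0.167. That of Satb1 was kept without either fresh array (0.0361) and lost without DMSO replicates 1 (0.0888) and 2 (0.126) or 79-6 replicates 1 (0.0503) and 2 (0.0847). Zbtb7b, which encodes the CD4-lineage factor ThPOK, had a change of 0.48 that was not called (adjusted p = 0.146 by limma), with 221.9 and 313.9 in 79-6 arrays and 188.8 and 190.3 in DMSO arrays. Runx1, the Runx factor that silences Cd4 at the DN stage, had a change of -0.28 (adjusted p = 0.0918 by limma). Setting the arrays to 1 median of the general T-lineage genes left 1 rise and 1 fall in the list.

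With DMSO against fresh cells 9 of these regulators rose and 8 fell (median -0.00, against 0.02 for all genes), where 8.89% of all genes were called higher and 10.7% lower. The rises were in Ikzf3 (2.81), an Ikaros-family factor, Satb1 (1.23), Ikzf1 (0.73), Zbtb7b (0.67), Ets1 (0.66), Tox (0.64), an HMG-box factor needed for CD4-lineage cells, Zeb1 (0.42), Cbfb (0.39), the partner of Runx factors, and Gata3 (0.34). The falls were in Hes1 (-1.52), a Notch target that binds the Cd4 silencer, Runx1 (-1.20), Smarca4 (-0.49), the ATPase of the BAF remodelling complex, Stat5a (-0.46), Myb (-0.45), Patz1 (-0.39), also known as MAZR, a repressor of Cd8 genes, Uhrf1 (-0.31) and Lef1 (-0.25). Runx1 read 3509 and 3571 with DMSO and 8170 and 8058 in fresh cells, a 0.436-fold level (adjusted p = 9.11e-05 by limma). Of these 17 calls 9 held when any array was left out, and those of Cbfb, Zbtb7b, Gata3, Zeb1, Patz1, Lef1, Uhrf1 and Stat5a did not. There were 6 higher and 4 lower without fresh replicate 1, 7 and 5 without fresh replicate 2, 7 and 4 without DMSO replicate 1 and 7 and 6 without DMSO replicate 2. Between 79-6 and fresh cells, where 12% of all genes were called higher and 13.9% lower, 8 rose and 11 fell. Runx3 (0.69) was now among the rises. The falls were fewer whichever array was left out, and Runx3 kept its call in each fit that left out 1 array.

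**Figure D4:**
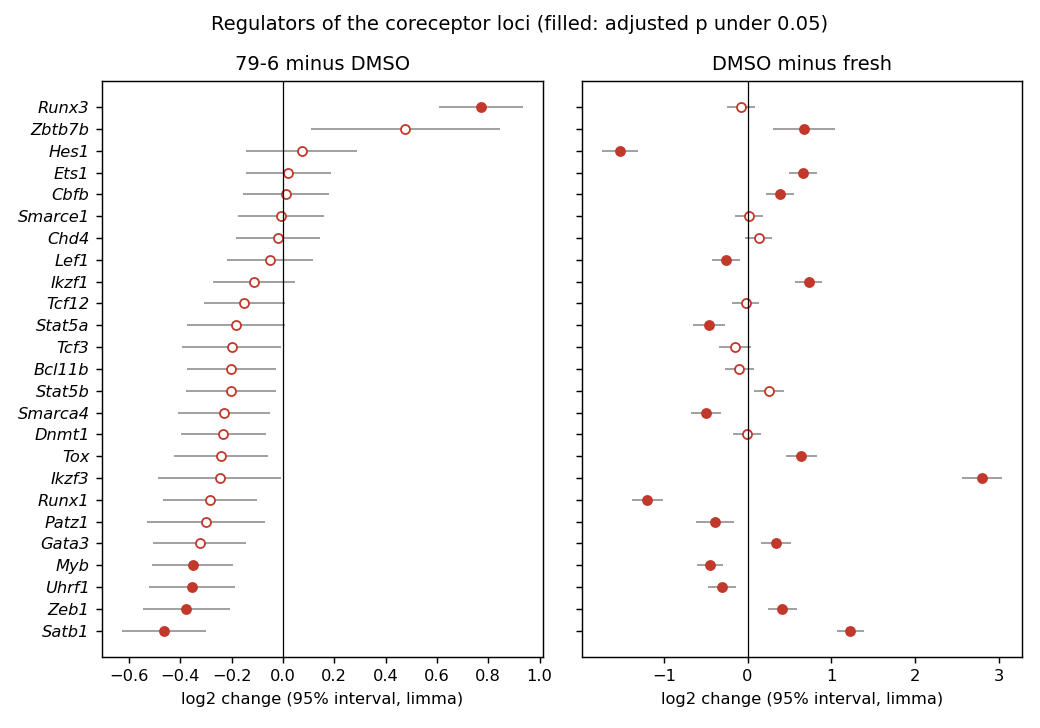
Log2 change of 25 regulators of the coreceptor loci, with 95% intervals from limma, for 79-6 minus DMSO (left) and DMSO minus fresh (right); filled points are called. Runx3 stands at the top on the left (0.77) and at -0.08 on the right, and Ikzf3 rises most on the right.

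The neighbours of the coreceptor genes on chromosome 6 were read as well, taking the 6 nearest tested genes on each side in the RefSeq gene order. With 79-6 against DMSO 0 of 12 neighbours of Cd4 and 0 of 12 neighbours of the Cd8a and Cd8b1 pair were called by limma, near the 4.36% called over all genes, so the counts say little about the neighbours. At an unadjusted p under 0.05 there were 3 and 4, counts to which the 4.36% does not apply. With DMSO against fresh cells 3 neighbours of Cd4 rose and 1 fell, where 8.89% of all genes were called higher and 10.7% lower. Gpr162, next to Cd4, rose 3.75-fold, with 412.8 and 500.4 in DMSO arrays and 107.2 and 137.3 in fresh ones (adjusted p = 0.000138 by limma). Cdca3, a cell-cycle gene, rose by 1.02 and Ptms by 0.96. Lag3 on the other side of Cd4, which encodes a receptor related to CD4 that also binds MHC class II, had a change of -0.18 (adjusted p = 0.329 by limma). Cops7a fell by 0.59, a call lost without fresh replicate 1 (0.0701) or DMSO replicates 1 (0.0746) and 2 (0.0529).

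Around the CD8 genes 5 of 12 neighbours rose in DMSO relative to fresh cells and 0 fell, beside 8.89% higher and 10.7% lower over all genes. The changes were no larger than 0.84, that of Rmnd5a, against 3.07 for Cd8b1 and 4.36 for Cd8a. Kdm3a, a histone demethylase, rose by 0.61. Krcc1 (0.41), Reep1 (0.40) and Smyd1 (0.39) rose less. The call of Krcc1 was lost without either fresh array (0.0589 and 0.0674) or DMSO replicate 1 (0.075), that of Reep1 without fresh replicate 1 (0.0738) or DMSO replicate 2 (0.0693), and that of Smyd1 without fresh replicate 2 (0.137) or either DMSO array (0.107 and 0.0827). The median over the 12 neighbours was 0.18 at the Cd4 locus and 0.20 at the CD8 locus, against 0.02 for all genes.

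**Figure D5:**
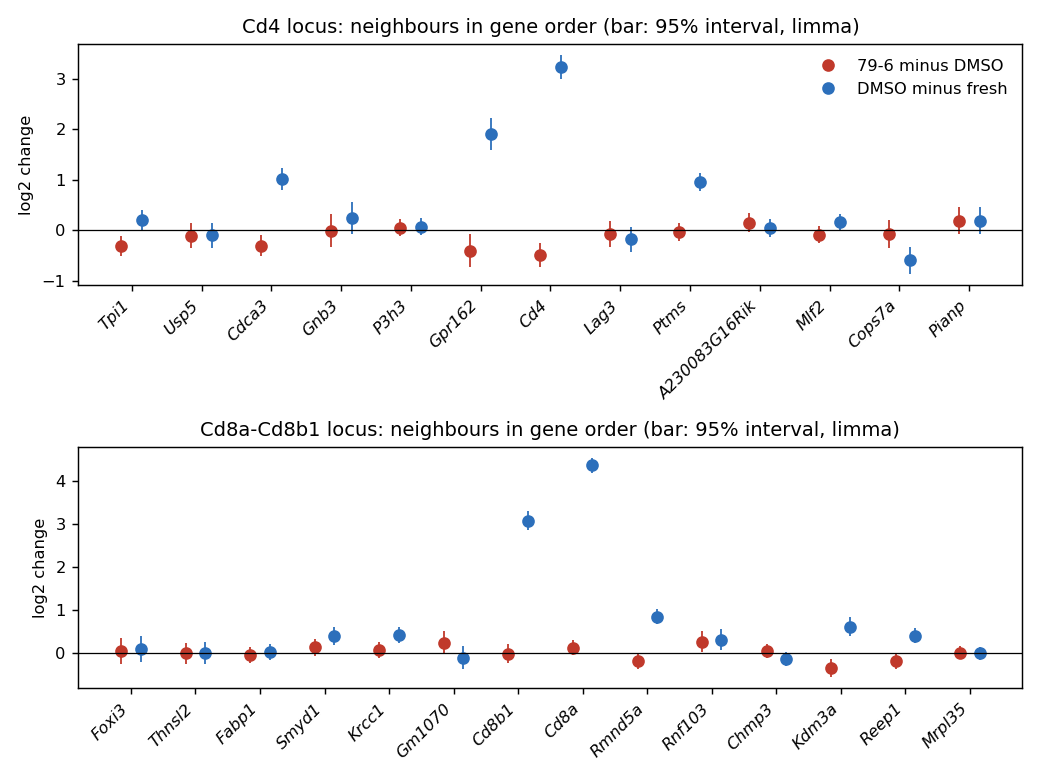
Log2 change (vertical axis, 95% intervals from limma) of Cd4 (upper) and of Cd8b1 and Cd8a (lower) with the 6 nearest tested genes on each side, in gene order and not to scale. The coreceptor genes exceed every neighbour shown in DMSO minus fresh, and Gpr162 is the neighbour with the largest rise.

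Genes with patterns like the members were ranked by Pearson correlation over the 6 arrays, among the genes whose group means span at least 1 log2 unit (822 for each member). The 6 arrays fall into 3 groups, so these values describe the group pattern and carry no p. For Cd4 the highest were Cd5 (0.9989), a negative regulator of T cell receptor signals, Rb1 (0.9987), the retinoblastoma gene, Camk4 (0.9981), a calcium-dependent kinase, Dgkd (0.998), a diacylglycerol kinase, Ccng2 (0.9978) and Slc6a19 (0.9974). Cd5 read 685.2 and 709.4 with 79-6, 811.6 and 948.3 with DMSO, and 182.6 and 192.6 in fresh cells. Of these, Camk4 and Slc6a19 were called between 79-6 and DMSO (-0.41 and -0.44, adjusted p = 0.0448 and 0.0489 by limma), and neither call held when any one array was left out.

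For Cd8a the highest were the costimulatory receptor Cd28 (0.9989), then Cd8b1 (0.9985), Id3 (0.9982), an inhibitor of E proteins, Ly6a2 (0.998), Polg (0.9973) and Atg4a (0.9965). Cd28 read 2359 and 2421 with 79-6, 2398 and 2445 with DMSO and 477.1 and 505.4 in fresh cells. For Cd8b1 they were Polg (0.9996), the mitochondrial DNA polymerase, Id3 (0.9991), Cd8a (0.9985), Slc28a2b (0.9976), Sit1 (0.9973) and Cd28 (0.9972). Cd4 was 44th in the order for Cd8a (0.9846) and 26th in that for Cd8b1 (0.9891).

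Of 21 measured genes of beta-selection and of the ISP and DP stages, with the coreceptors left out, 14 rose and 1 fell with DMSO against fresh cells (median 0.55, against 0.02 for all genes; 8.89% of all genes were called higher and 10.7% lower). The adhesion receptor Cd2 (3.35), Ikzf3, Cd6 (2.66) and Id3 (2.46) rose most, and the fall was in Arpp21 (-0.44). Arpp21 lost its call without fresh replicate 1 (0.0522) or DMSO replicate 1 (0.0584). With 79-6 against DMSO 1 rose and 3 fell (median -0.03), beside 2.38% higher and 1.98% lower over all genes: Cd96 rose by 0.47, and Cd6 (-0.69), Arpp21 (-0.64) and the survival gene Bcl2l1 (-0.59) fell. Leaving out either DMSO array or 79-6 replicate 2 ended all 4 calls, with 0 genes of the list called. With 79-6 against fresh cells 12 rose and 2 fell, where 12% of all genes were called higher and 13.9% lower.

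Of 16 genes of DN3 and earlier cells 2 rose and 11 fell with DMSO against fresh cells (median -1.18), beside 8.89% higher and 10.7% lower over all genes. Erg (-2.38), the interleukin-2 receptor gene Il2ra (-1.94), the pre-T cell receptor chain Ptcra (-1.86) and Kit (-1.65) fell most, and Dntt (0.99) and Spi1 (0.61) rose. The call of Spi1 ended when fresh replicate 1 or a DMSO array was left out, and leaving out fresh replicate 2 gave 3 rises. With 79-6 against DMSO 5 rose and 1 fell (median 0.21), beside 2.38% higher and 1.98% lower over all genes: the Notch target Dtx1 (1.29), Kit (1.06), Lmo2 (0.86), Il2ra (0.58) and Erg (0.51) rose, and Dntt, the terminal transferase, fell by 0.80. Without either DMSO array 3 rises and 0 falls were called. Relative to fresh cells, 79-6 had 3 rises and 10 falls, beside 12% higher and 13.9% lower over all genes.

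Genes of single-positive maturation were higher with 79-6 against DMSO in 8 of 11 measured cases and lower in 0 (median 0.77), where 2.38% of all genes were called higher. S1pr1 (1.22), the receptor for thymic exit, the integrin chain Itgb7 (1.20), Klf2 (1.01), an activator of S1pr1, and Foxo1 (0.95) rose most. The calls of S1pr1 and Itgb7 were lost in some fits that left out 1 array, as were those of Ccr7, Bcl2 and Cd52. The list holds Runx3 and Zbtb7b as well, which also stand among the regulators. These 8 rises became 4 without DMSO replicate 1 or 79-6 replicate 2 and 3 without DMSO replicate 2. With DMSO against fresh cells, where 8.89% of all genes were higher, 7 rose, S1pr1 (2.27) and Foxo1 (1.42) among them, and Bcl2 (-0.70) and Il7r fell. Il7r, the interleukin-7 receptor gene, read 1976 and 1900 with DMSO and 3721 and 4042 in fresh cells. Relative to fresh cells, 79-6 had 8 rises and 1 fall, beside 12% higher and 13.9% lower over all genes.

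Of 19 measured partners of coreceptor signalling 1 rose with 79-6 against DMSO, the phosphatase gene Ptpn6 (0.50), and 0 fell, a count near the 4.36% called over all genes. Without either DMSO array or 79-6 replicate 2 there were 0. With DMSO against fresh cells 7 rose and 5 fell (median 0.15), beside 8.89% higher and 10.7% lower over all genes: Zap70, the kinase recruited to the CD3 chains, rose by 1.42, Cd247 by 0.56 and Themis by 0.54, while Pag1 (-0.95), an adaptor that recruits Csk, and Cd3g (-0.68) fell. Without either fresh array or DMSO replicate 1 there were 4 rises and 4 falls, and without DMSO replicate 2 there were 4 and 5. With 79-6 against fresh cells 10 rose and 4 fell, beside 12% higher and 13.9% lower over all genes. Both counts were smaller when either fresh array or either 79-6 array was left out. Lck was not analysed here.

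Of 10 measured genes of coreceptor ligands and their control, 2 rose with 79-6 against DMSO and 0 fell (median 0.48; 2.38% of all genes were called higher): the class II chain H2-Aa (0.72) and Ciita (0.59), the class II transactivator. They were 1 without 79-6 replicate 1, 0 without 79-6 replicate 2 or DMSO replicate 1 and 3 without DMSO replicate 2, and 4 under the T-lineage scaling. With DMSO against fresh cells 0 rose and 2 fell, Nlrc5 (-0.43) and Tap1 (-0.30), both of class I presentation, where 19.6% of all genes were called. Neither call held in every fit that left out 1 array, and the falls numbered 1 when fresh replicate 1 or DMSO replicate 2 was dropped and 0 when fresh replicate 2 or DMSO replicate 1 was. With 79-6 against fresh cells 5 rose and 0 fell, beside 12% higher and 13.9% lower over all genes. The rises were fewer when either fresh array or either 79-6 array was left out.

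Cells other than thymocytes can carry coreceptor transcripts, so their markers are given beside the results. The magnetic purification on Thy1.2 selects against cells that lack Thy1, and the labels do not give its purity. Xcr1 and Clec9a, which define the dendritic cells that bear CD8 alpha, lay between 44.0 and 56.4 and between 25.0 and 28.8 on all 6 arrays. Of 12 markers of these cells 2 were higher and 0 lower with 79-6 against DMSO, where 2.38% of all genes were called higher and 1.98% lower. They were Itgae (1.17), whose product is also an integrin of T cells, and Itgax (1.14). Itgax lost its call when either DMSO array or 79-6 replicate 2 was left out. With DMSO against fresh cells 2 markers were higher and 0 lower, beside 8.89% and 10.7% of all genes. With 79-6 against fresh cells 5 markers were higher and 0 lower, beside 12% and 13.9%. Their summed log2 intensity ran from 11.72 to 11.73 with 79-6, 11.21 to 11.27 with DMSO and 10.92 to 11.17 in fresh cells. Markers of lymphoid tissue inducer cells, which can carry CD4 in mice, had 0 of 6 called by limma between 79-6 and DMSO. At an unadjusted p under 0.05 there were 3. Against fresh cells 0 were higher and 2 lower with DMSO, and 2 were higher and 1 lower with 79-6. These markers summed to 9.65 to 9.83 with 79-6, 9.51 to 9.60 with DMSO and 9.82 to 10.15 in fresh cells. Plasmacytoid dendritic cell markers had 1 of 7 higher with 79-6 against DMSO, a call lost without either DMSO array or 79-6 replicate 2. Against fresh cells 1 was higher and 3 lower with DMSO, and the counts were the same with 79-6. They summed to 12.69 to 12.79 with 79-6, 12.48 to 12.59 with DMSO and 13.15 to 13.25 in fresh cells.

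Macrophage markers were higher after culture. With DMSO against fresh cells 5 of 12 were higher and 0 lower, where 8.89% of all genes were called higher and 10.7% lower. With 79-6 against fresh cells 10 of 12 were higher and 0 lower, where the shares were 12% and 13.9%. C1qa was the 1 marker higher with 79-6 than with DMSO (0.98), where 2.38% of all genes were called higher. That call was lost when either DMSO array or either 79-6 array was left out. At an unadjusted p under 0.05 there were 5 of the 12 macrophage markers between 79-6 and DMSO. The summed log2 intensity of the macrophage markers ran from 14.38 to 14.54 with 79-6, 14.03 to 14.07 with DMSO and 12.16 to 12.89 in fresh cells. The part of these and the following cells in the coreceptor values was not tested. The counts that follow stand beside 2.38% of all genes called higher and 1.98% lower with 79-6 against DMSO. The shares were 8.89% and 10.7% with DMSO against fresh cells, and 12% and 13.9% with 79-6 against fresh cells. Of 11 markers of natural killer and innate-like cells 4 were higher and 1 lower with 79-6 against DMSO, with a median change of 0.69. Most of these calls were lost in some fit that left out an array. At an unadjusted p under 0.05 there were 10 of the 11. In this list 1 was higher and 6 lower with DMSO against fresh cells, and 4 were higher and 1 lower with 79-6 against fresh cells. All 10 markers of thymic epithelium were lower with DMSO than in fresh cells, and 0 were called between 79-6 and DMSO (2 at an unadjusted p under 0.05). B cell markers had 1 of 6 higher with 79-6 against DMSO, a call also lost without either DMSO array or 79-6 replicate 2, and erythroid markers had 0 of 5 called there (1 at an unadjusted p under 0.05). Limma called 0 of the 6 general T-lineage genes between 79-6 and DMSO (median -0.08), and unadjusted p-values under 0.05 numbered 3. Between DMSO and fresh cells 2 of these genes were higher and 3 lower, and with 79-6 against fresh cells 2 were higher and 4 lower, so the scaling on their median rests on genes that were themselves called in both comparisons with fresh cells.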

How the data were processed

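RNA of Thy1.2+ fetal thymocytes was labelled for Affymetrix whole-transcript arrays, per the labels' protocols. The deposited table holds intensities on the linear scale for 34760 probe sets on 6 arrays (8.75 to 25316), made with RMA and the oligo package, per the submitters' processing notes, with versions not given in the sources used here. RMA corrects background, sets all arrays to 1 distribution and summarises probes, so a shift of total RNA is not visible. The number of arrays limits the precision.

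Values were taken to log2. Probe sets with 1 symbol in the platform annotation (21640; 1321 had several and 11799 none) gave 19937 genes, with the brightest probe set where a gene had several. The limma package 3.58.1 in R 4.3.3 was fitted to all 6 arrays with 1 mean per group, and two-sided p-values were adjusted by Benjamini-Hochberg over all genes (threshold 0.05). Scripts were tested on simulated data. Differences between members within an array were compared by an exact permutation test. The labels name no batch.

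Named were the members, Bcl6, the labelled antigen Thy1, called regulators of the loci, up to 4 called genes with the largest changes per other list, 6 neighbours on each side, and the 6 genes most like each member. Beyond that rule, Lag3 was given as a neighbour, Xcr1 and Clec9a as defining markers, and Themis, Il2ra and Erg with 79-6, and the few genes that moved against most of their list (Arpp21, Dntt, Spi1, Il7r, Bcl2), were chosen after their values were seen. Members and lists were chosen with earlier results of these data known. Some genes of the lists, Lck among them, were not analysed here. Alternatives covered left-out arrays, a replicate block, the arrays in the fit, probe set choice, 2 scalings, a filter on dim genes and the variance model. They also covered all probe sets fitted and adjusted together, and a pseudocount of 16.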

Additional observations from a re-analysis of the deposited data

How the results depend on the processing

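The rises of Cd4, Cd8a and Cd8b1 over fresh cells, with DMSO and with 79-6, kept direction and call under all 15 alternatives, and Cd8a between 79-6 and DMSO stayed uncalled under all 15. Several of the 15 could not move a member's log2 change, so its direction was fixed there. They were the replicate block, the fit of only the 2 groups compared, the mean of probe sets and the filter on dim genes. So were the variance model, all probe sets together, and leaving out an array of the group not compared. The change of Cd4 between 79-6 and DMSO (-0.48) kept its direction but lost its call in 10 of 15: with a replicate block (-0.48, adjusted p = 0.0589 by limma), with only the 2 groups compared (-0.48, 0.071), with arrays set to 1 median of the T-lineage genes (-0.41, 0.0585), with all probe sets adjusted together (-0.48, 0.156) and without each array in turn (-0.62 to -0.35, 0.0686 to 0.193). The alternative with all probe sets also refitted the variances (SE of Cd4 0.109, against 0.101), so it does not isolate the adjustment. The call of Cd4 was kept with the mean of all probe sets (0.0451), 1 median per array (0.0378), dim genes left out (0.0235), a trended robust variance (0.0104) and 16 added (0.0318). The change of Cd8b1 between 79-6 and DMSO (-0.01) turned to 0.06 with T-lineage scaling, 0.0017 without DMSO replicate 2 and 0.036 without 79-6 replicate 2, with a range of -0.064 to 0.036 over left-out arrays, and was never called. The cause was not tested. Genes called between 79-6 and DMSO numbered 869, against 93 to 661 without 1 array, 1547 without dim genes, 1723 with the trended variance and 69 with all probe sets. Between DMSO and fresh they numbered 3902, against 2286 to 4070 without 1 array and 2475 with all probe sets. Between 79-6 and fresh they numbered 5174, against 3081 to 5068 without 1 array. With 16 added, Cd4 minus Cd8b1 shifted by -0.40 between 79-6 and fresh, against -0.31; the other 71 values of these differences moved by less than the spread between replicates. List counts moved by over 1.5 times in 51 cases and by less in 219. Deviations of same-numbered arrays were nearly uncorrelated over genes (-0.074, 0.0036 and 0.0948). That does not settle whether equal numbers share a culture or day, which the labels do not say. The arrays were treated as unpaired. The replicate block left 774 genes called between 79-6 and DMSO. With 2 arrays a group, each spread rests on few values.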
